A study of Rattus norvegicus with 14 samples.

Results

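Endothelial cells line every blood vessel, and the genes described here are those commonly used to recognise them: Pecam1, Cdh5, Sox17, Sox18, Kdr, Tek, Tie1, Flt1, Vwf and Emcn. They were taken by name from a list of 10 markers of blood vessel endothelium. Of the 10 listed genes, 8 were measured, each by 1 probe set, among 16134 genes with a symbol. Pecam1 and Kdr were not analysed here. The tissue was lateral prostate, from 14 male rats of the Noble strain at an age of 48 weeks, with 1 array per rat. Control rats (n = 4) carried empty capsules under the skin. Rats of the T+E2 group (n = 4) carried capsules with 30 mg testosterone and 15 mg estradiol. The T+low BPA group (n = 3) received 30 mg testosterone with 15 mg bisphenol A (BPA), a building block of plastics that weakly mimics estrogen, and the T+high BPA group (n = 3) received 30 mg testosterone with 320 mg BPA. Treated rats kept their capsules for 32 weeks. All 3 treated groups thus shared testosterone, and a group given testosterone alone was not analysed here, so testosterone and the second compound cannot be told apart in a difference from Control.

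Vessels of an adult organ are held together by junctions between endothelial cells, kept quiet by growth factor receptors on their surface, and maintained by a small set of transcription factors. VE-cadherin, made from Cdh5, is the adhesion protein of these junctions, and Emcn encodes endomucin, a sialomucin of capillary and venous endothelium. Tek encodes the angiopoietin receptor TIE2, Tie1 its partner, and Flt1 a high-affinity receptor that binds and sequesters vascular endothelial growth factor. Sox17 and Sox18 are related transcription factors of the SoxF family, and Vwf encodes von Willebrand factor, the clotting glycoprotein stored in endothelial cells. In the prostate, androgen is known to maintain the vascular bed, which regresses after castration in rodents.

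Genes of endothelium are commonly read by transcription factors of the ETS, SOX and GATA families, whose short recognition words are often found near their starts. RefSeq promoter windows of rat assembly GRCr8, reaching from 250 bases before a start to 50 bases after it, were held for 3 of the 8 measured members, namely Emcn, Flt1 and Tie1. Both strands were searched. The word taken for the ETS family was AGGAAG. For the SOX family it was AACAAT. For the GATA family it was AGATAA. No matches overlapped each other in these windows. The stretches with a match are shown for the members that had a window, and whether these words bear on their levels was not tested. The Emcn stretch is the part of the window that lies before the RefSeq gene record. The Flt1 and Tie1 matches lie before the start used for the window but inside the RefSeq gene record. Their stretches are therefore limited to 30 bases around each match. Capitals mark the matches, and CTTCCT is AGGAAG on the opposite strand.
Emcn, chr2:228564289-228564444, plus strand: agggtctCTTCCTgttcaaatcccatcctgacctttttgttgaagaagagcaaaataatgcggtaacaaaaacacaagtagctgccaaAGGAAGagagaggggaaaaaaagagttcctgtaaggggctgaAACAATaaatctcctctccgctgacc
Flt1, chr12:12333246-12333275, plus strand: cgcccctccgggAGGAAGaagagggtaggt
Flt1, chr12:12333322-12333351, plus strand: aggtgccggggtAGGAAGtgggctggggaa
Tie1, chr5:137305025-137305054, minus strand: gcatcatttcctCTTCCTccccagcaccga
Emcn held 2 ETS words, beginning at -243 and -162 from the start, and 1 SOX word beginning at -120. Flt1 held 2 ETS words, beginning at -172 and -96, and Tie1 held 1, beginning at -61 on the opposite strand. AGATAA was in none of the 3 windows. Over all 33469 RefSeq promoter windows of 300 bases, 34.5% held the ETS word, 11.7% the SOX word and 11.6% the GATA word, so a single match is common and is given as a description of the letters.

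Levels are given as deposited, in log2 units, so a difference of 1 is a doubling of the signal, and a level is not comparable between probe sets. Arrays have no read depth, and their number limits the precision. Prostate identity was plain on every array: the probasin gene Pbsn lay between 12.12 and 13.07, Msmb between 12.49 and 13.20, and the epithelial gene Epcam between 10.89 and 11.79. Arrays of one group correlated at 0.979 or more over all genes in the 3 treated groups, and at 0.956 to 0.994 in Control, where replicate 4 stood apart. That array also carried secretory genes of the ventral prostate, a neighbouring lobe, at a mean level of 12.54 over 5 genes (Sbp, Scgb1d2, Scgb2a1, Scgb1d4 and Klk1c9) against 5.99 to 6.48 on the other Control arrays. The same mean was 12.64 on T+E2 replicate 2 and 6.92 to 8.62 on the other T+E2 arrays, 7.47 to 7.90 on the T+low BPA arrays and 10.54 to 12.75 on the T+high BPA arrays. Member differences from Control are therefore also given without Control replicate 4, singly or as counts and medians.

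None of the 8 members was called changed in any of the 6 comparisons between groups. A gene was called when limma's adjusted p, over all 16134 genes of a comparison, was below 0.05. T+low BPA had the highest mean of the 4 groups for 6 of the 8 members and Control the lowest for 7 of 8. Much of the second count rested on 1 array: without Control replicate 4, Control had the lowest mean for 3 of 8 members, T+E2 for 3 and T+high BPA for 2, while T+low BPA kept the highest for 5. In whole tissue, fewer endothelial cells and less RNA per endothelial cell cannot be told apart. The spread that enters each p-value is that between single rats.

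**Figure D1:**
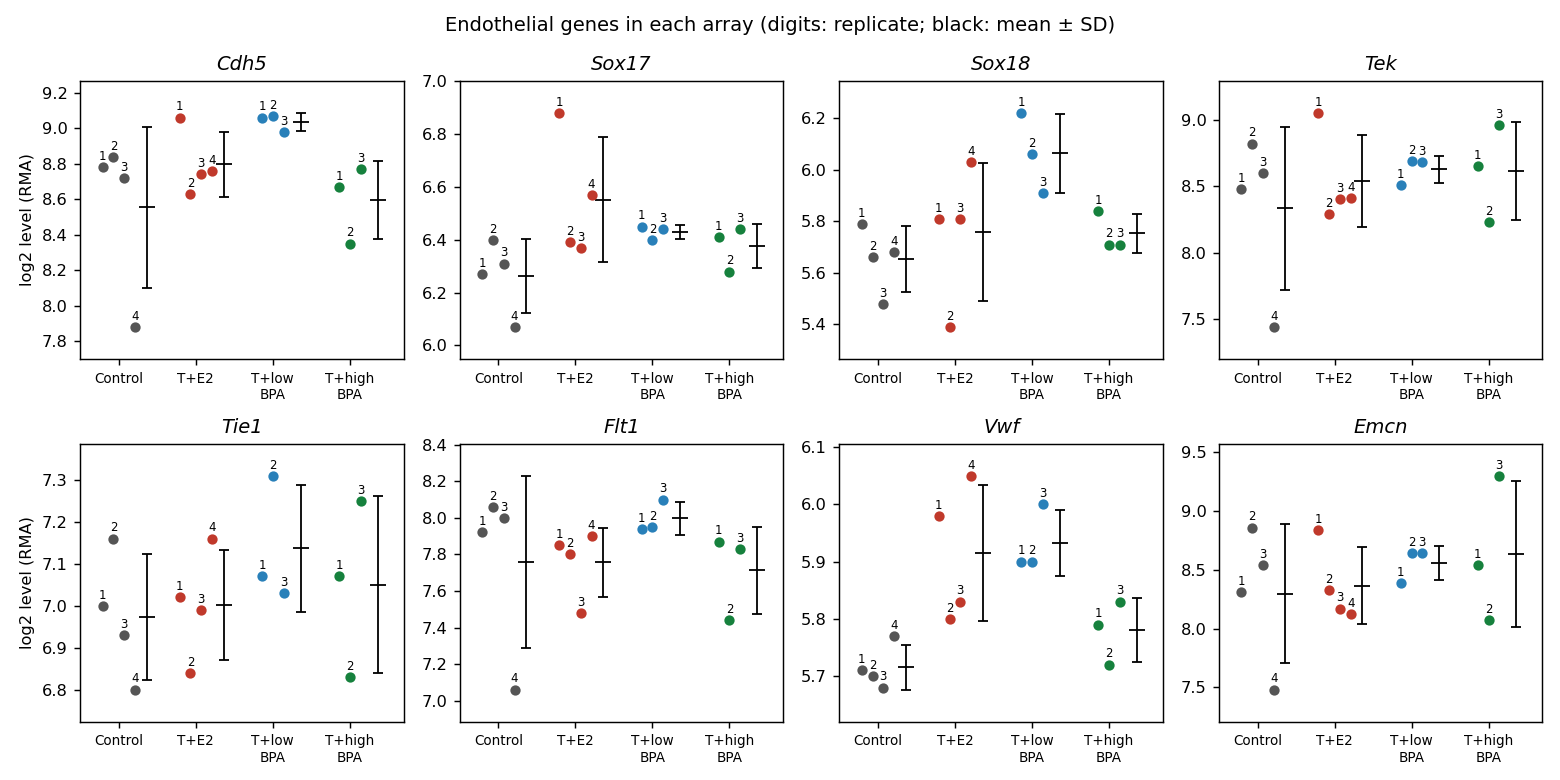
Log2 level (vertical axis, RMA) of each of the 8 endothelial genes on every array, in 4 groups on the horizontal axis; points are arrays with their replicate number, and black bars are the mean ± SD. Control replicate 4 is the lowest point for Cdh5, Sox17, Tek, Tie1, Flt1 and Emcn, and the 3 T+low BPA arrays lie close together for Cdh5, Sox17 and Flt1.

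Of the junction and surface genes, Cdh5 had the clearest separation. Its log2 levels were 8.78, 8.84, 8.72 and 7.88 in Control, 9.06, 8.63, 8.74 and 8.76 in T+E2, 9.06, 9.07 and 8.98 in T+low BPA, and 8.67, 8.35 and 8.77 in T+high BPA. All 3 T+low BPA arrays lay above all 4 Control arrays and above all 3 T+high BPA arrays, with group means of 9.04 ± 0.05 (SD, n = 3), 8.56 ± 0.45 (n = 4) and 8.60 ± 0.22 (n = 3). The difference between T+low BPA and Control was 0.48 (95% interval 0.06 to 0.90, 1.4-fold), with an unadjusted p of 0.0273 and a limma adjusted p of 0.608. Without Control replicate 4 it was 0.25, with a limma adjusted p of 0.519. T+high BPA minus T+low BPA was -0.44 (interval -0.89 to 0.01, limma adjusted p = 0.363). T+E2 lay 0.24 above Control with all arrays and 0.02 above it without Control replicate 4.

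Emcn had the widest spread of the members within groups, a pooled SD of 0.47 that exceeded those of 97% of all genes. Its levels were 8.31, 8.86, 8.54 and 7.48 in Control, 8.84, 8.33, 8.17 and 8.12 in T+E2, 8.39, 8.64 and 8.64 in T+low BPA, and 8.54, 8.07 and 9.30 in T+high BPA. The groups overlapped in every comparison, and the highest and lowest of the 3 T+high BPA arrays stood further apart than any pair of group means. The largest of its differences from Control was 0.34 in T+high BPA (interval -0.32 to 1.0, limma adjusted p = 0.788), and it was 0.07 without Control replicate 4. Without that array the T+E2 difference of Emcn went from 0.07 to -0.20 and its T+low BPA difference from 0.26 to -0.01.

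Among the receptors, Tek resembled Emcn in its spread, with a pooled SD of 0.42 within groups. It was measured at 8.48, 8.82, 8.60 and 7.44 in Control, 9.05, 8.29, 8.40 and 8.41 in T+E2, 8.51, 8.69 and 8.68 in T+low BPA, and 8.65, 8.23 and 8.96 in T+high BPA. Group means ran from 8.33 ± 0.62 in Control to 8.63 ± 0.10 in T+low BPA and all groups overlapped. Its differences from Control were 0.21 in T+E2, 0.29 in T+low BPA and 0.28 in T+high BPA, and without Control replicate 4 they were -0.09, -0.01 and -0.02. The limma adjusted p of these 3 differences lay between 0.73 and 0.843 with all arrays.

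Flt1 was the member that differed least between T+E2 and Control, with means of 7.76 in both (limma adjusted p = 0.997). The individual levels were 7.92, 8.06, 8.0 and 7.06 in Control, 7.85, 7.80, 7.48 and 7.90 in T+E2, 7.94, 7.95 and 8.10 in T+low BPA, and 7.87, 7.44 and 7.83 in T+high BPA. Apart from Control replicate 4, every Control array lay above every T+E2 array, and the T+E2 difference was -0.23 without that array (unadjusted p = 0.0754, limma adjusted p = 0.343). All T+low BPA arrays lay above all T+E2 arrays, by 0.24 in the mean (limma adjusted p = 0.689), and above all T+high BPA arrays, by 0.28 (limma adjusted p = 0.569). Tie1 had a smaller spread. Control arrays read 6.80 to 7.16, T+E2 arrays 6.84 to 7.16, T+low BPA arrays 7.03 to 7.31 and T+high BPA arrays 6.83 to 7.25, so all groups overlapped and no difference exceeded 0.17. The T+E2 difference of Tie1 from Control was 0.03 with all arrays and -0.02 without Control replicate 4.

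The SoxF transcription factors had their highest means in different groups. Sox17 was at 6.27, 6.4, 6.31 and 6.07 in Control, 6.88, 6.39, 6.37 and 6.57 in T+E2, 6.45, 6.4 and 6.44 in T+low BPA, and 6.41, 6.28 and 6.44 in T+high BPA. Its T+E2 mean, 6.55 ± 0.24, was the highest of the groups and rested in part on replicate 1. T+E2 exceeded Control by 0.29 (interval 0.05 to 0.53, 1.22-fold), with an unadjusted p of 0.0207 and a limma adjusted p of 0.187, and without T+E2 replicate 1 the difference was 0.18.

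For Sox18 the T+low BPA group stood highest. Levels were 5.79, 5.66, 5.48 and 5.68 in Control, 5.81, 5.39, 5.81 and 6.03 in T+E2, 6.22, 6.06 and 5.91 in T+low BPA, and 5.84, 5.71 and 5.71 in T+high BPA. All T+low BPA arrays lay above all Control and all T+high BPA arrays, and they overlapped with T+E2. Against Control the difference was 0.41 (interval 0.12 to 0.70, 1.33-fold), with the smallest unadjusted p of the members, 0.00825, and a limma adjusted p of 0.466. The difference without Control replicate 4 was 0.42. T+low BPA exceeded T+E2 by 0.30 (unadjusted p = 0.0394, limma adjusted p = 0.317), and T+high BPA minus T+low BPA was -0.31 (unadjusted p = 0.0474, limma adjusted p = 0.355).

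Vwf varied least of the members, with a pooled SD of 0.08, which only 2.21% of all genes fell below. Its levels were 5.71, 5.70, 5.68 and 5.77 in Control, 5.98, 5.80, 5.83 and 6.05 in T+E2, 5.90, 5.90 and 6.0 in T+low BPA, and 5.79, 5.72 and 5.83 in T+high BPA. Both T+E2 and T+low BPA lay wholly above Control, and T+low BPA lay wholly above T+high BPA. T+E2 exceeded Control by 0.20 (interval 0.04 to 0.36, 1.15-fold, unadjusted p = 0.0207, limma adjusted p = 0.187), and T+low BPA exceeded it by 0.22 (interval 0.04 to 0.39, unadjusted p = 0.0204, limma adjusted p = 0.579). Without Control replicate 4 these differences were 0.22 and 0.23. The Vwf and Sox18 probe sets lay below the array median on all 14 arrays and Sox17 on 12.

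Most members had a higher mean in the treated groups than in Control, and none of these differences was called. Against Control, T+E2 had 0 of 8 members called, where 3.23% of all genes were called. It was above Control for 7 members and below for 1, with a median difference of 0.15 against 0.01 over all genes. Vwf was the 1 of 8 members whose T+E2 arrays lay wholly above Control, as did 4.66% of all genes, and 0 lay wholly below, as did 4.69%. Sox17 and Vwf, 2 of 8 members, had an unadjusted p below 0.05, as did 17.9% of all genes in either direction. Without Control replicate 4, 4 members were above Control and 4 below, and their median difference was 0.

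In T+low BPA minus Control, 0 of 8 members were called against 0.0186% of all genes. All 8 lay above Control, with a median of 0.25 and a range of 0.17 to 0.48, where 55.6% of all genes lay above with a median of 0.02. The arrays of 3 members, Cdh5, Sox18 and Vwf, lay wholly above Control, as did those of 5.59% of all genes, and 0 lay wholly below, as did 2.69%. The same 3 had an unadjusted p below 0.05, as did 7.59% of all genes. Without Control replicate 4, 6 of 8 lay above and the median was 0.11. T+high BPA minus Control gave 0 of 8 called against 0.0062% of all genes, 0 unadjusted p below 0.05 against 8.64%, and 0 members wholly above or below Control against 3.94% and 5.13%. In T+high BPA, 7 members were above Control and 1 below, where 44.1% of all genes were above, and the differences ran from -0.04 in Flt1 to 0.34 in Emcn with a median of 0.09. Without Control replicate 4, 5 were above and 3 below with a median of 0.03. Flt1 was then at -0.27, and Cdh5 went from 0.04 to -0.19.

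**Figure D2:**
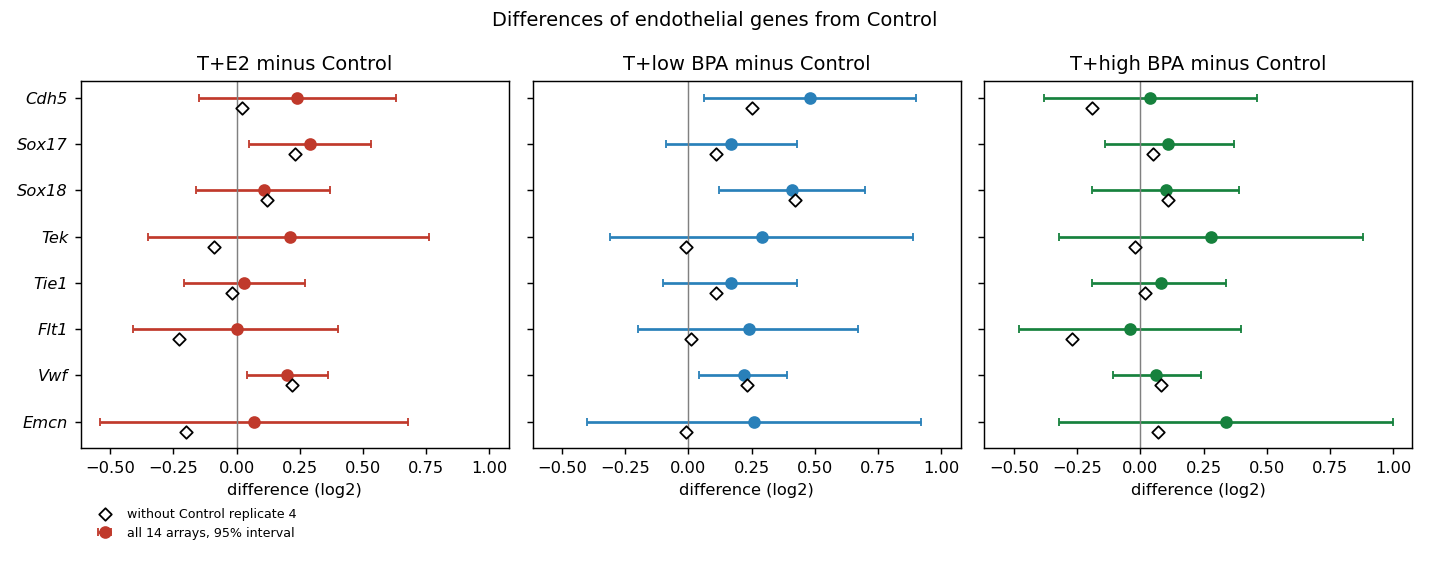
Difference from Control (horizontal axis, log2) for the 8 endothelial genes in each treated group; filled circles with bars are limma differences over all 14 arrays with 95% intervals, and open diamonds are the differences without Control replicate 4. Diamonds of Cdh5, Tek, Flt1 and Emcn lie to the left of their circles in every panel, and those of Sox18 and Vwf lie slightly to the right.

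Between the BPA doses, most members were lower at the high dose, again without a call. T+high BPA minus T+low BPA had 0 of 8 members called and 0% of all genes called. An unadjusted p below 0.05 was found for 1 member, Sox18, and for 14% of all genes. The T+high BPA mean was lower for 7 of 8 members, with a median of -0.12 against -0.05 over all genes, of which 39.7% lay above. The ventral prostate mean was 10.54 to 12.75 on the T+high BPA arrays and 7.47 to 7.90 on the T+low BPA arrays. With that mean as a covariate the direction turned, with 5 of 8 members higher at the high dose and a median of 0.09. The ventral prostate means of the BPA groups did not overlap, so the covariate and the dose cannot be told apart in this comparison. Arrays of 4 members, Cdh5, Sox18, Flt1 and Vwf, lay wholly below T+low BPA, as did 15.7% of all genes, and 0 lay wholly above, as did 9.61%. With 3 rats in each BPA group, the intervals of this comparison ran from -0.89 to 0.01 in Cdh5 and from -0.63 to 0.78 in Emcn. T+low BPA minus T+E2 had 0 of 8 called against 3.53% of all genes, 7 members above and 1 below, a median of 0.16, and 1 member, Flt1, wholly above, as were 9.12% of all genes, with 0 wholly below against 6.82%. Sox18 had an unadjusted p below 0.05 there, as did 14.2% of all genes. T+high BPA minus T+E2 had 0 of 8 called against 10.2% of all genes, with 3 above, 5 below, a median of -0.02 and 0 wholly separate members against 12.6% higher and 14.1% lower. No member had an unadjusted p below 0.05 there, against 27.4% of all genes.

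Rats of one group differed widely in several members. Control replicate 4 lay below the mean of the other Control arrays by 1.20 on the log2 scale in Tek, 1.08 in Emcn, 0.93 in Flt1 and 0.90 in Cdh5. It lay 0.26 below it in Sox17 and 0.22 below it in Tie1, but 0.04 above it in Sox18 and 0.07 above it in Vwf. It was below all 3 other Control arrays in 6 of 8 members (75%), against 30.6% of all genes. The same was so for 15 of 21 vascular receptors, 18 of 27 other endothelial surface genes, 8 of 10 fibroblast markers and 12 of 13 leukocyte markers, and for 1 of 11 smooth muscle markers. All 5 ventral prostate genes lay above the other Control arrays there.

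The array richest in ventral prostate genes was also the lowest in many members in 3 of the 4 groups. Besides Control replicate 4, T+high BPA replicate 2, with a ventral prostate mean of 12.75, was the lowest of its group in 8 of 8 members, in Sox18 by less than the rounding. T+E2 replicate 2, at 12.64, was the lowest of its group in 5 of 8. The matching shares of all genes are not given for these arrays, so these counts cannot be read as a trait of the members. In T+low BPA, where the ventral prostate means spanned only 7.47 to 7.90, the richest array was replicate 2. It was the lowest of its group in 1 of 8 members and the highest in 4 of 8. T+high BPA replicates 1 and 3, at 11.3 and 10.54, were the lowest of their group in 0 of 8, and replicate 3 was the highest in 6 of 8 with a member mean of 7.51. The mean of the 8 members was 6.77, 7.08 and 7.19 on the 3 arrays above 12.5 (Control replicate 4, T+high BPA replicate 2 and T+E2 replicate 2) and 7.22 to 7.56 on the other 11. The ventral prostate means fall into separate clusters, so no correlation is given. With that mean as a covariate, T+E2 minus Control was 0.34 in Sox17 and passed the test (limma adjusted p = 0.0441, with 0.0441 to 0.412 over the alternatives). In that fit 1228 of all 16134 genes were called, against 521 without the covariate. The Sox17 call was the only call of a member in any alternative. The same covariate moved the Tek difference between T+high BPA and Control from 0.28 to 0.83 (limma adjusted p = 0.0947) and that of Emcn from 0.34 to 0.81 (limma adjusted p = 0.226). All 3 T+high BPA arrays had ventral prostate means above 10, so in that comparison the covariate and the group cannot be told apart in full.

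**Figure D3:**
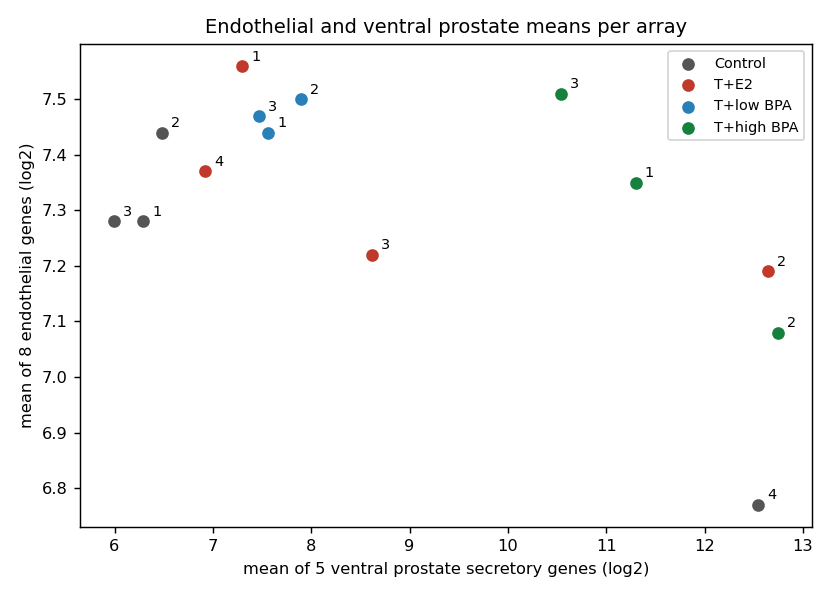
Mean log2 level of the 8 endothelial genes (vertical axis) against the mean log2 level of 5 ventral prostate secretory genes (horizontal axis), 1 point per array with its replicate number, coloured by group. The 3 arrays above 12.5 on the horizontal axis have the 3 lowest endothelial means, 6.77, 7.08 and 7.19.

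Within groups, several members moved together. After subtracting group means, Tek correlated with Cdh5 at 0.96 and with Emcn at 0.94 over the 14 arrays, and at 0.92 with each over the 13 arrays without Control replicate 4. Sox17 correlated with Tek at 0.82 and with Cdh5 at 0.75, and at 0.84 and 0.82 without that array. Flt1 depended on it more, with 0.88 to Cdh5 and 0.85 to Tek over all arrays and 0.53 and 0.58 without it. Tie1 was intermediate, with 0.64 to Tek. Sox18 had correlations of 0.00 with Tek, -0.18 with Emcn and 0.23 with Sox17, the other SoxF gene. Its others were 0.50 with Vwf, 0.42 with Tie1, 0.13 with Cdh5 and -0.06 with Flt1. Vwf had 0.01 to Cdh5 and 0.10 to Tek over all arrays, and 0.50 to each without Control replicate 4. Without that array it also had 0.66 to Flt1 and 0.65 to Sox17, against 0.11 and 0.44 with it. These values are descriptions over 14 arrays that share RMA normalization.

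**Figure D4:**
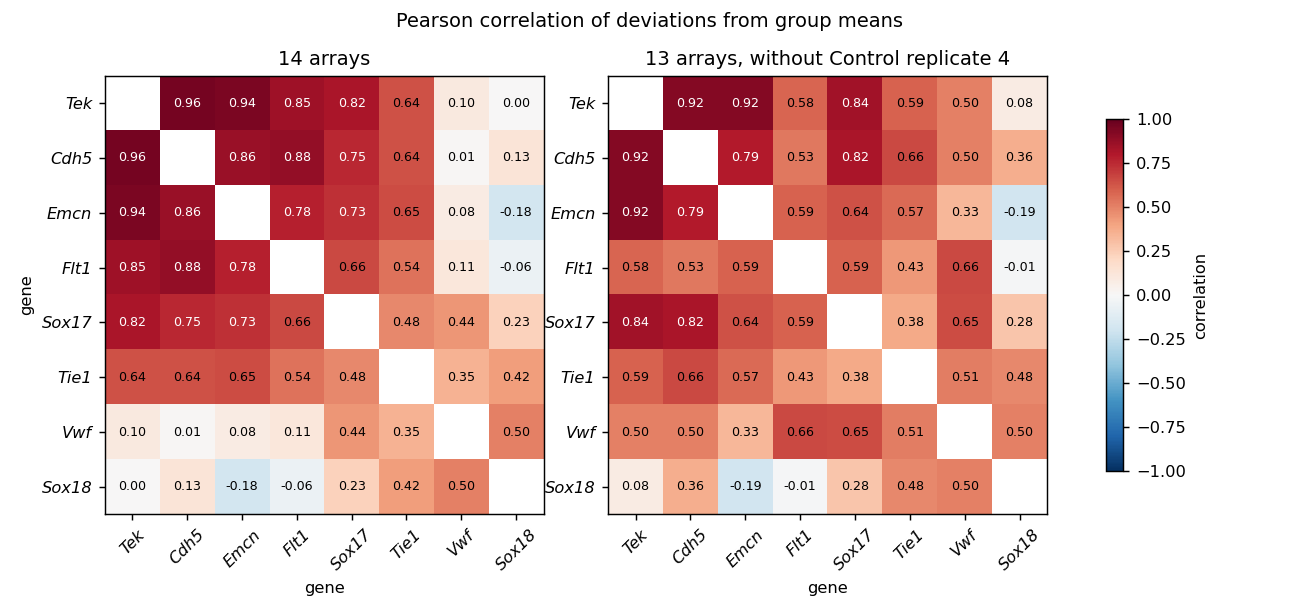
Pearson correlation between endothelial genes over arrays after subtracting group means (colour and printed value), over 14 arrays on the left and 13 on the right. Tek, Cdh5 and Emcn correlate at 0.86 to 0.96 with each other on the left and at 0.79 to 0.92 on the right. The lowest value in each panel is that of Sox18 with Emcn, at -0.18 and -0.19.

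Over the 16126 genes that are no member, those most like the mean of the members in this sense were Cd200 (0.973), Vim (0.965), Bnip2 (0.963), Rgs5 (0.959), Jam2 (0.957), Vcan (0.949), Brip1 (0.946) and Igfbp7 (0.945). Vim encodes vimentin, the intermediate filament of mesenchymal and endothelial cells, Rgs5 is a marker of pericytes, the cells that wrap capillaries, and Jam2 encodes an adhesion protein of endothelial junctions. The most opposite were Cars1 (-0.971), Lrp8 (-0.965), Lhfpl2 (-0.964), Clcn3 (-0.96), Zswim5 (-0.957), Nmt1 (-0.956), Bpnt2 (-0.954) and Syde2 (-0.954). In all, 70 genes reached 0.9 or more and 128 reached -0.9 or less. Without Control replicate 4, Cd200 was again the highest, at 0.943, and 4 of the 8 genes at each end were again among the 8.

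The wider vascular pathway was followed in lists of other genes. Over all genes, 3.23% were called in T+E2 minus Control, 3.53% in T+low BPA minus T+E2 and 10.2% in T+high BPA minus T+E2. Counts of calls in the lists stand beside these shares, and no list was tested as a set. Of 22 measured ligands of vascular receptors, 0 were called in the 3 comparisons with Control, with medians of -0.01 in T+E2, 0.07 in T+low BPA and -0.08 in T+high BPA. The smallest p of each comparison belonged to Vegfb in T+E2 (-0.63, limma adjusted p = 0.0661), Angptl4 in T+low BPA (0.38, limma adjusted p = 0.33) and Angpt2, the antagonist of angiopoietin 1 in many vessels, in T+high BPA (-0.35, limma adjusted p = 0.53). The 1 ligand called between treated groups was Angpt1, angiopoietin 1, which activates the receptor made from Tek. Its levels were 5.53, 5.53, 5.65 and 5.45 in Control, 6.01, 6.75, 5.86 and 5.74 in T+E2, 4.72, 5.15 and 5.14 in T+low BPA, and 5.30, 5.29 and 4.86 in T+high BPA. All T+E2 arrays lay above all Control arrays, and all Control arrays lay above all BPA arrays. Angpt1 was lower in T+low BPA than in T+E2 by a difference of -1.08 ± 0.20 (SE, limma adjusted p = 0.00674), and in T+high BPA by -0.94 ± 0.20 (limma adjusted p = 0.0105). T+E2 exceeded Control by 0.55, which was not called (limma adjusted p = 0.14). Each call ended in 1 of 26 alternatives, namely without T+low BPA replicate 1 (adjusted p = 0.0511) and without T+high BPA replicate 3 (adjusted p = 0.0515) respectively. Tek itself was not called in either comparison, at 0.09 (interval -0.51 to 0.69) and 0.07 (interval -0.53 to 0.67). The ligand list had medians of 0.12 in T+low BPA minus T+E2 and -0.04 in T+high BPA minus T+E2.

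**Figure D5:**
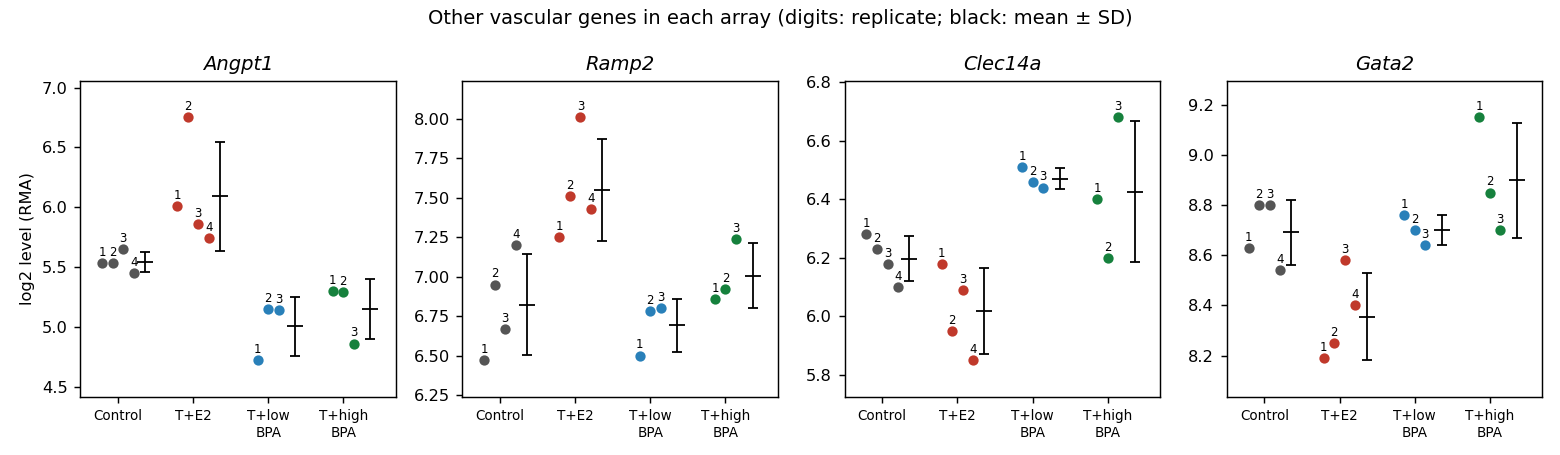
Log2 level (vertical axis, RMA) of Angpt1, Ramp2, Clec14a and Gata2 on every array, in 4 groups on the horizontal axis; points are arrays with their replicate number, and black bars are the mean ± SD. Angpt1 and Ramp2 are highest in T+E2, where Angpt1 reads 5.74 to 6.75, and Clec14a and Gata2 are lowest there.

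Among 21 measured vascular receptors and co-receptors, 1 was called. Ramp2, the co-receptor that makes Calcrl a receptor for adrenomedullin, read 6.47, 6.95, 6.67 and 7.20 in Control, 7.25, 7.51, 8.01 and 7.43 in T+E2, 6.5, 6.78 and 6.80 in T+low BPA, and 6.86, 6.92 and 7.24 in T+high BPA. T+E2 lay wholly above all other groups. Ramp2 rose by 0.73 in T+E2 against Control (limma adjusted p = 0.0386), a call that ended in 11 of 26 alternatives, at adjusted p of 0.0501 to 0.124. T+low BPA minus T+E2 was -0.85 (limma adjusted p = 0.0219), and this call ended when any 1 of the 3 T+low BPA arrays was left out, at 0.0575 to 0.12. Of the 21 in that comparison, 14 lay above and 7 below, with a median of 0.03. The receptor list had medians of 0.09, 0.18 and 0.05 against Control in T+E2, T+low BPA and T+high BPA, and of -0.02, 0.09 and -0.04 without Control replicate 4. Its uncalled genes with the smallest p were Notch4 in T+E2 (0.34, limma adjusted p = 0.173), Adgrf5 and Cd93 in T+low BPA (0.45 and 0.50, limma adjusted p = 0.596 and 0.607), and Ackr3 and Nrp2 in T+high BPA (-0.30 and -0.21, limma adjusted p = 0.612 and 0.675).

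Of 27 other endothelial surface and junction genes, 0 were called against Control. In T+low BPA minus T+E2, 1 was called higher, where 3.53% of all genes were called. There 16 of the list lay above and 11 below, with a median of 0.08. In T+high BPA minus T+E2, 3 were called higher, where 10.2% of all genes were called. Most of the list went the other way there, with 10 above and 17 below and a median of -0.05. Clec14a, a lectin of endothelial cells, read 6.28, 6.23, 6.18 and 6.10 in Control, 6.18, 5.95, 6.09 and 5.85 in T+E2, 6.51, 6.46 and 6.44 in T+low BPA, and 6.4, 6.20 and 6.68 in T+high BPA. Both BPA groups lay wholly above T+E2, by 0.45 (limma adjusted p = 0.0401) and 0.41 (limma adjusted p = 0.0334). These calls ended in 10 and 5 of 26 alternatives, at adjusted p of up to 0.151 and 0.133. Ace, the angiotensin-converting enzyme, was 0.60 higher in T+high BPA than in T+E2 (limma adjusted p = 0.0203), and the call ended in 3 of 26 alternatives, which were cyclic loess, quantile normalization and leaving out T+high BPA replicate 1, at up to 0.108. Tfpi, the inhibitor of tissue factor, was 0.82 higher there (limma adjusted p = 0.0492), and its call ended in 16 of 26. The list's medians against Control were 0.05, 0.12 and 0.06, and 0.02, 0.03 and -0.01 without Control replicate 4. Leaving out that array brought 2 calls in T+E2 minus Control, Ace and Cav1. Vcam1, an adhesion molecule of activated endothelium, was not called in T+E2 (0.75, limma adjusted p = 0.106), nor were Sele in T+low BPA (0.63, limma adjusted p = 0.44) and Selp in T+high BPA (-0.58, limma adjusted p = 0.496).

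Of 22 endothelial transcription factors, 0 were called against Control, with medians of 0.06, -0.01 and 0.01, and of -0.01, -0.03 and -0.09 without Control replicate 4. In T+high BPA minus T+E2, 2 were called higher, where 10.2% of all genes were called. Of the 22 there, 5 lay above and 17 below, with a median of -0.1 against -0.05 over all genes. Gata2, which is also made outside the endothelium, read 8.19, 8.25, 8.58 and 8.40 in T+E2 and 9.15, 8.85 and 8.70 in T+high BPA, without overlap. It was 0.55 higher (limma adjusted p = 0.0128), and the call ended in 1 of 26 alternatives, without T+high BPA replicate 1 (0.0709). Lmo2 was 0.57 higher (limma adjusted p = 0.047), and its call ended in 16 of 26. Klf4 in T+E2 (0.36, limma adjusted p = 0.0874), Bcl6b and Erg in T+low BPA (0.34 and 0.32, limma adjusted p = 0.557 and 0.634) and Lyl1 in T+high BPA (-0.30, limma adjusted p = 0.463) had the smallest p against Control among those not called.

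None of the 12 arterial markers and none of the 10 venous and lymphatic markers was called in any of the 6 comparisons. Arterial medians against Control were 0.05, 0.14 and -0.04, with Gja5, the connexin of arterial endothelium, at 0.33 in T+low BPA (limma adjusted p = 0.547). Venous and lymphatic medians were -0.07, -0.03 and -0.15, with Lyve1, a receptor of lymphatic endothelium, at 0.70 in T+low BPA (limma adjusted p = 0.5). Some of these genes also stand in the ligand, receptor and transcription factor lists.

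Pericytes wrap capillaries, and smooth muscle cells surround larger vessels and, in the prostate, also the ducts. Of 10 pericyte markers, 1 was called, Anpep, which encodes aminopeptidase N and is also carried by epithelial cells. Anpep rose in T+E2 by 0.74 against Control (limma adjusted p = 0.00279) and was lower than in T+E2 by a difference of -0.69 in T+high BPA (limma adjusted p = 0.00492), and both calls held in all 26 alternatives. Its difference of -0.53 in T+low BPA from T+E2 (limma adjusted p = 0.0356) lost its call in 11 of 26. The pericyte list's medians were 0.11 in T+E2 minus Control, -0.05 in T+high BPA minus T+E2 and 0.01 in T+low BPA minus T+E2. Rgs5, which followed the endothelial members from rat to rat, was not called (0.56 in T+low BPA, limma adjusted p = 0.606). Of 11 smooth muscle markers, 4 fell in T+E2 against Control, namely Tagln (-0.78), Actg2 (-0.78), Pgm5 (-0.75) and Cnn1 (-0.59), with limma adjusted p of 0.0276 to 0.0363, and the list's median there was -0.59. All 11 lay below Control, and 3.23% of all genes were called in that comparison. The 4 calls ended in 6 to 11 of 26 alternatives, at adjusted p of up to 0.128. Among these were leaving out Control replicate 2, Control replicate 3 or T+E2 replicate 2, for each gene. Leaving out Control replicate 4 kept the 4 calls and added Myh11 and Synpo2, 6 in all, with a median of -0.66. In T+high BPA minus T+E2, 3 were higher, namely Tagln (1.14), Actg2 (0.77) and Myl9 (0.67), with limma adjusted p of 0.00346 to 0.046. The Tagln call held in all 26 alternatives, while that of Actg2 ended in 5 and that of Myl9 in 12, at up to 0.104 and 0.142. The medians of the endothelial members in these comparisons were 0.15 and -0.02.

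Markers of other cell types were followed for what they show beside these values. In the comparisons with Control, 0 of 10 fibroblast markers, 0 of 13 leukocyte markers, 0 of 6 platelet markers, 0 of 5 red blood cell markers and 0 of 10 luminal epithelium markers were called. Their medians in T+low BPA, where the endothelial members had their highest median, were 0.10, -0.06, 0.13, 0.09 and -0.17, and without Control replicate 4 they were -0.02, -0.37, 0.15, 0.07 and -0.12. Between treated groups, calls in these lists were Krt19 (-1.25), Ehf (-0.38) and Cd52 (1.20) in T+low BPA minus T+E2 and Hoxb13 (1.24), Spdef (0.68), Cd52 (0.98) and Ahsp (0.62) in T+high BPA minus T+E2, with limma adjusted p of 0.00234 to 0.0449. Those of Krt19, Hoxb13 and Cd52 held in all 26 alternatives, while the calls of Ehf and Spdef ended in 14 and 12 of 26, at up to 0.213 and 0.152. The call of Ahsp ended without T+high BPA replicate 3 (0.0714), 1 of 25 alternatives. Ahsp read only 3.42 to 4.30 over the arrays, and of the 5 red blood cell markers 3 lay above and 2 below there (median 0.09). Cd52 went against its list in T+low BPA minus T+E2, where 3 of 13 leukocyte markers lay above and 10 below (median -0.29). In T+high BPA minus T+E2, 8 lay above and 5 below (median 0.03). Averaged over the list, luminal levels lay at 8.31 to 8.39 in T+low BPA, 8.32 to 8.86 in Control, 8.24 to 9.18 in T+E2 and 8.79 to 8.95 in T+high BPA, and their part in the endothelial values was not tested. Skeletal muscle markers ranged from a mean of 6.53 to one of 10.20 over the arrays, with 0 of 11 called in any comparison and medians of -0.78, -0.69 and -1.32 against Control. With their mean as a covariate, 0 of 8 endothelial members were called in T+E2 minus Control and their median was 0.17. Of 13 genes known to respond to hypoxia, 1 was called in T+E2 minus Control, where 3 lay above and 10 below. This was Pfkfb4, an enzyme that regulates glycolysis, which fell by 0.73 (limma adjusted p = 0.0312). The call ended in 6 of 26 alternatives, among them without Control replicate 4 (0.0508), at up to 0.0951. Without that array the 1 call of the list was Egln3, which was at -0.71 with all arrays (limma adjusted p = 0.126). Pfkfb4 was 0.83 higher in T+low BPA than in T+E2 (limma adjusted p = 0.0205) and 1.07 higher in T+high BPA than in T+E2 (limma adjusted p = 0.00274). The first of these calls ended in 5 of 26 alternatives, when any 1 of the T+low BPA arrays, T+E2 replicate 1 or T+E2 replicate 4 was left out, at 0.0502 to 0.103, and the second held in all 26. The list's medians against Control were -0.16, 0.08 and 0.05.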

How the data were processed

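RNA of 14 lateral prostates had been isolated with TRIzol, amplified with a whole-transcriptome kit and hybridised to 1 array per rat, per the labels' protocols. The deposited log2 values came from RMA, as the submitters' processing notes name it, which corrects background, normalizes between arrays and summarises probes, so differences in array brightness were gone before deposit. The RMA version was not given in the sources used here, nor were the genome build and probe set definition. Values lay between 2.3 and 13.65, with array medians of 6.38 to 6.46. Of 17802 probe sets, 16134 carried 1 gene symbol, each symbol 1 probe set, and 1668 carried none. By gene number, 3107 symbols were updated through the RefSeq table of GRCr8. No value was filtered out.

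Groups came from the sample titles. The model was fitted in R 4.3.3 (limma 3.58.1), with 1 coefficient per group over all 14 arrays, 10 residual degrees of freedom and 4.13 prior ones, and its two-sided p-values were adjusted by Benjamini-Hochberg for 16134 genes in each of 6 comparisons separately. The fit was tested on simulated data. Differences are the first group named minus the second, an error after ± is an SD over arrays unless marked SE, and intervals use limma's moderated standard error. The comparisons share groups, so they are not independent of each other.

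The members and the 16 other gene lists were chosen with earlier results of these data known. The rule for naming was all members, the called genes of each list, the 2 genes of each list with the smallest p in each comparison with Control (some of these are left to the list counts here), and the 8 genes at each end of likeness to the member mean. Alternatives were a filter on dim genes (below the 25th percentile), all probe sets, cyclic loess, quantile normalization, median centring, only the compared groups, robust empirical Bayes with an intensity trend, weights per array, a replicate block, ventral prostate or skeletal muscle genes as a covariate, leaving out the 3 arrays highest in ventral prostate genes, leaving out each array in turn, and thresholds of 0.10 and 0.01.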

Additional observations from a re-analysis of the deposited data

Results flagged for a closer look

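In the 2 groups of 4 arrays, the 8 members gave 16 sets of values, and in 3 of them 1 array stood further from the rest than Dixon's 95% limit for 4 samples allows. For a single set, chance gives about 1 in 20. The members share the same arrays and several moved together, so the 16 sets are not independent and their count cannot be read against that rate. Cdh5 on Control replicate 4 lay at 7.88, and its gap to the next array made up 0.874 of the range of that group. Flt1 on the same array lay at 7.06, with a gap of 0.861 of the range. Tek on T+E2 replicate 1 lay at 9.05, above the other T+E2 arrays, with a gap of 0.846. Groups of 3 were not examined in this way.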

How the results depend on the processing

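The 48 member differences were recomputed in 26 alternative fits, which gave 1248 values with 84 changes of sign and 1 call. That call was Sox17 in T+E2 minus Control with the ventral prostate covariate, which took the count of called members there from 0 to 1. The count over all 16134 genes went from 521 to 1228 in the same fit. The thresholds of 0.10 and 0.01 gave 0 members in that comparison. The same covariate moved the median member difference of T+high BPA minus Control from 0.09 to 0.30 and that of T+high BPA minus T+low BPA from -0.12 to 0.09. The cause was not tested. Cyclic loess and quantile normalization of the deposited values each moved Vwf from -0.14 to -0.04 in T+high BPA minus T+E2. In T+high BPA minus T+low BPA each moved it from -0.15 to -0.05. Both also ended the calls of Tfpi, Ace, Lmo2, Actg2, Myl9 and Spdef in T+high BPA minus T+E2, and that of Cnn1 in T+E2 minus Control. Leaving out 1 array at a time moved the median between 0 and 0.23 in T+E2 minus Control, between 0.11 and 0.37 in T+low BPA minus Control, and between 0.02 and 0.16 in T+high BPA minus Control.

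Counts of called genes over the whole table were less stable. T+E2 minus Control had 521, with 222 when only the compared groups were fitted, 1098 with array weights and 1228 with the ventral prostate covariate. T+low BPA minus Control had 3 (0 to 35 over the alternatives), T+high BPA minus Control 1 (0 to 235), T+low BPA minus T+E2 569 (309 to 904), T+high BPA minus T+E2 1639 (857 to 2759) and T+high BPA minus T+low BPA 0 (0 to 61).

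With the replicate number as a block, 0 members were called and 587 genes were called in T+E2 minus Control. The block ended the calls of Cnn1 (adjusted p = 0.0531) in T+E2 minus Control, of Clec14a (0.067), Anpep (0.0811) and Ehf (0.0586) in T+low BPA minus T+E2, and of Tfpi (0.0552) in T+high BPA minus T+E2. The labels do not say that the numbers mark a shared litter or day. Of 19 same-numbered pairs, 14 correlated above 0.1, against 11 of 54 pairs with different numbers. The medians were 0.166 and -0.02, and the ranges -0.464 to 0.444 and -0.458 to 0.644. Same-numbered arrays were thus more often alike, and 6 of 14 arrays were closest to their own number. The main fit leaves the number out.

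Arrays give no depth. With 3 or 4 rats a group, a difference that missed the threshold is not shown to be absent.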
